A study of Mus musculus with 5 samples.

Results

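Macrophages of the neonatal mouse heart were followed through 10 genes that mark them. These were 6 genes carried by macrophages in general (Lyz2, C1qa, C1qb, C1qc, Csf1r and Cd68) and 4 genes associated with the resident type (Lyve1, Mrc1, F13a1 and Cd163). They were chosen by symbol, and all 10 were listed in each of the 5 expression tables, among 13708 genes common to the 5 tables. The data were Visium spatial transcriptomes, in which a slide carries an array of barcoded spots and each spot captures the RNA of the tissue over it, usually several cells. All hearts came from wild type C57BL/6 mice that underwent surgery on postnatal day 1, either myocardial infarction (MI, by ligating the left anterior descending artery) or a sham operation. Hearts were sectioned 3 or 7 days later, 10 μm thick, at 200 μm below the suture in MI hearts and at the matching level in sham hearts. There was 1 section for sham day 3 (544 spots), 1 for MI day 3 (376), 1 for sham day 7 (960) and 2 for MI day 7 (693 and 791), 3364 spots in all.

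Macrophages clear dead cells and matrix after injury and exchange signals with fibroblasts, endothelial cells and cardiomyocytes. The heart holds a population seeded before birth, much of which carries Lyve1, Mrc1 and Cd163, and after infarction monocytes enter from the blood and become macrophages. Lysozyme 2 (Lyz2) is an antibacterial enzyme made in quantity by monocytes, macrophages and neutrophils. C1qa, C1qb and C1qc encode the 3 chains of C1q, which opens the classical complement cascade and tags dying cells. Csf1r is the receptor for the growth factors Csf1 and Il34 that macrophages need to survive, and Cd68 is a glycoprotein of their lysosomes. Of the resident-type genes, Mrc1 encodes the mannose receptor, Cd163 the scavenger receptor for haemoglobin bound to haptoglobin, Lyve1 a hyaluronan receptor that lymphatic vessels also carry, and F13a1 the A chain of clotting factor XIII, which platelets also hold.

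The promoters show where the genes could be read by PU.1, the transcription factor encoded by Spi1 that recognises purine-rich DNA around GAGGAA in many myeloid genes. RefSeq start sites (GRCm38.p6) were used for 7 of the 10 genes, with 8 promoters. C1qa and Lyve1 had no start site at hand. Csf1r was left out of the search, so the counts below do not cover it. The 250 bases before each start used were searched for GAGGAA and its reverse complement TTCCTC. At least 1 match stood in 5 of the 8 promoters, beside 23.3% of the 32851 mouse promoters searched alike. A match describes the letters and is no evidence of binding. The 4 promoters below, read 5′ to 3′ on the gene's own strand with any match in capitals, were picked to show the resident-type gene with the most matches, a pair of neighbouring complement genes, and Lyz2, which had none. Mrc1 (chr2:14229164-14229413, plus strand) held 3 matches, C1qb (chr4:136886201-136886450, minus strand) 1, C1qc (chr4:136892915-136893164, minus strand) 1, and Lyz2 (chr10:117282273-117282522, minus strand) 0.
Mrc1: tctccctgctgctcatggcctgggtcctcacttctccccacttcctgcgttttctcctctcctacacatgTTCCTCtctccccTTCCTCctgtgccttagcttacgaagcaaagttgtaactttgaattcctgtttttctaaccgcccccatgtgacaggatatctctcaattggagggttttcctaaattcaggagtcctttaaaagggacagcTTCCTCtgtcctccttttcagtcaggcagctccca
C1qb: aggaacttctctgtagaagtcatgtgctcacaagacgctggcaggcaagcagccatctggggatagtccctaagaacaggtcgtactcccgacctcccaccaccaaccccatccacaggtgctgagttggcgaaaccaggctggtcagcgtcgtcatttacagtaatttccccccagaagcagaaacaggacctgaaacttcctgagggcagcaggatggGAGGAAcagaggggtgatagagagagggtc
C1qc: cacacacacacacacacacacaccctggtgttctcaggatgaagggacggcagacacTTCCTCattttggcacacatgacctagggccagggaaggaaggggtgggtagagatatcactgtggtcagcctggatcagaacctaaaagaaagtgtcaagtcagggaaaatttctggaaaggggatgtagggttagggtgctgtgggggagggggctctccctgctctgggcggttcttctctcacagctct
Lyz2: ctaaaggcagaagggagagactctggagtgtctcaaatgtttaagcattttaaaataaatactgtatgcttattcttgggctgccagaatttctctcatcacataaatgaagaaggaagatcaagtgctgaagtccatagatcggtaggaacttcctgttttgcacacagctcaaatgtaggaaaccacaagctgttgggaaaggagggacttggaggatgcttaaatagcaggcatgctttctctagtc

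The sections held between 11396022 and 37492530 unique molecular identifiers (UMIs, counted molecules), with a median per spot between 20842.5 and 53940. For sham day 3 the table gave UMI counts as measured, whereas the other 4 gave counts corrected for depth with sctransform. Levels are therefore given as CPM, a gene's count scaled to the same total in every spot, averaged over the spots of a section, and no count test was run. Cardiomyocyte transcripts dominated every section, with Tnnt2 between 4749 and 5296 CPM. Mitochondrial transcripts made up 13.8% to 24.7% of the values. Of the 1948 barcodes, 897 occurred in more than 1 section, because the slides share the same array. The study describes the 2 MI day 7 sections as biological replicates, and each other group has 1 section, so that p-values rest on very few hearts. In a spot, fewer macrophages and less of a transcript per macrophage cannot be told apart.

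All 6 general genes were higher in every MI section than in either sham section, as were 6.84% of all genes, and the day 3 MI section stood far above the rest. All 5 red cell genes and 4 of 6 fibroblast genes measured beside them were also higher in every MI section. Lyz2 (chr10:117277331-117282321, minus strand) averaged 41.2 CPM in sham day 3 and 663 CPM in MI day 3, a 16.1-fold difference. At day 7 it averaged 50.3 CPM in the sham section and 81.5 and 145 CPM in the MI sections, 113 ± 45.2 (SD, n = 2). The sham sections were close to each other, and the MI sections differed among themselves by more than the sham sections did. The share of spots with any Lyz2 was 40.6% in sham day 3, 97.3% in MI day 3, 50% in sham day 7 and 88.2% and 60.6% in MI day 7, which also follows depth, with a median of 20842.5, 34837.5, 22934, 53940 and 20904 UMIs per spot in the same order. Lyz1, a near-identical neighbouring copy, summed to at most 12 over the spots of any table, and reads that fit both copies could not be assigned here.

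The C1q genes lie side by side on chromosome 4, C1qb at 136880129 to 136886187, C1qc at 136889804 to 136893065 and C1qa at 136895917 to 136898803, all on the minus strand, and their levels moved together. C1qa averaged 20.2 CPM in sham day 3, 78.6 in MI day 3, 19.7 in sham day 7 and 29.1 and 42.5 in MI day 7. C1qb averaged 15.6, 80.3, 17.8, 24.9 and 35.9 CPM in the same order, and C1qc 20.2, 75.0, 18.7, 29.3 and 33.9 CPM. Within each section the 3 chains kept nearly the same proportions, C1qa making up 33.6% to 37.8% of their sum, C1qb 27.9% to 34.3% and C1qc 30.2% to 36.04%. Lyz2 did not keep its proportion to them, since Lyz2 divided by the C1q sum was 0.74 in sham day 3, 2.84 in MI day 3, 0.90 in sham day 7 and 0.98 and 1.30 in MI day 7.

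Csf1r averaged 12.1 CPM in sham day 3, 56.7 in MI day 3, 13.5 in sham day 7 and 19.8 and 21.2 in MI day 7. The 2 MI day 7 sections agreed closely for this gene, 20.5 ± 0.98 (SD, n = 2). Its ligand Csf1 averaged 13.01, 19.1, 14.5, 15.8 and 18.5 CPM in the same order, and Il34 0.50, 0.91, 1.37, 2.40 and 2.35 CPM. Csf1 was thus higher in each MI section than in both sham sections, whereas the Il34 levels of MI and sham sections overlapped. Cd68 (chr11:69664213-69666153, minus strand) averaged 5.98 CPM in sham day 3, 32.2 in MI day 3, 4.62 in sham day 7 and 6.56 and 7.99 in MI day 7.

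The resident-type genes did not move as a block. Lyve1 (chr7:110850607-110863239, minus strand) averaged 9.05 CPM in sham day 3 and 2.83 in MI day 3, 0.31 times the sham level. At day 7 it averaged 6.31 CPM in the sham section and 2.98 and 4.37 in the MI sections, 3.68 ± 0.98 (SD, n = 2). Every MI section was thus below both sham sections, opposite to the general genes. The sham day 3 value rests on 91 UMIs (exact Poisson 95% interval 73.3 to 112, covering counting error only). Only 6.6% to 13.1% of the spots of a section held any Lyve1.

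Mrc1 (chr2:14229392-14332057, plus strand) averaged 13.2 CPM in sham day 3, 23.7 in MI day 3, 15.9 in sham day 7 and 17.0 and 17.1 in MI day 7. Its MI sections lay above its sham sections, but at day 7 the difference was small, 17.0 ± 0.08 (SD, n = 2) against 15.9 CPM. F13a1 (chr13:36867178-37050244, minus strand) averaged 5.13 CPM in sham day 3 and 12.3 in MI day 3, but 9.17 in sham day 7 and 7.99 and 7.20 in MI day 7. MI was therefore higher at day 3 and lower at day 7, and the MI and sham sections overlapped. Cd163 (chr6:124304656-124330527, plus strand) was close to the limit of detection, at 0.60, 1.14, 0.88, 0.97 and 1.16 CPM in the same order, with 7 UMIs in the whole sham day 3 section (exact Poisson 95% interval 2.8 to 14.4).

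**Figure D1:**
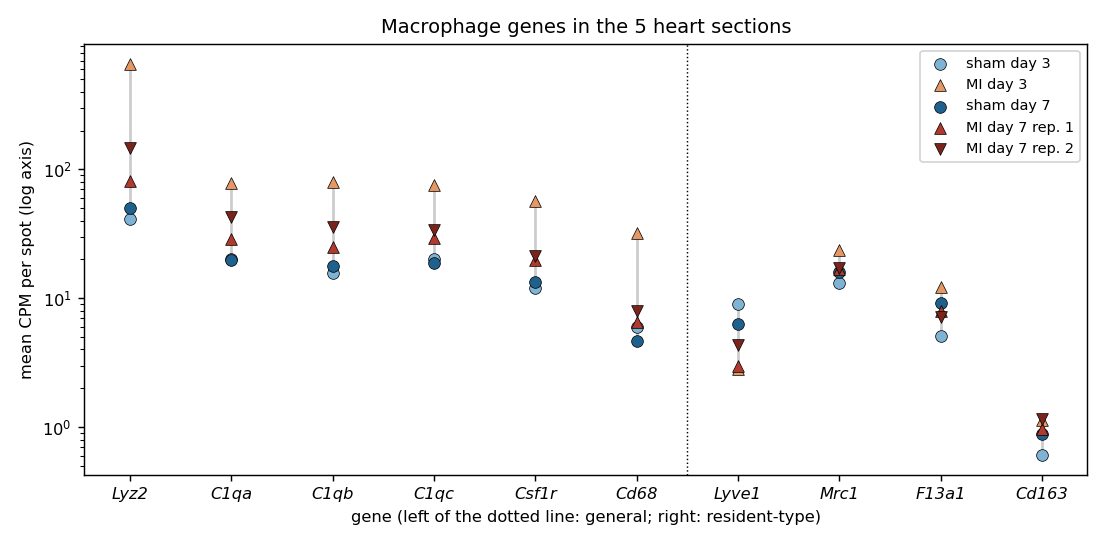
Mean CPM of each of the 10 genes in each section (log axis), general genes on the left and resident-type genes on the right, 1 point per section. The MI day 3 section lies far above the other 4 for the general genes (Lyz2 at 663 CPM), while for Lyve1 the 3 MI sections lie below both sham sections.

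Lyve1 also marks lymphatic vessels, whose markers were mixed. Of 6 lymphatic markers, 3 were lower in every MI section than in both sham sections (Ccl21a, Mmrn1 and Reln), as were 9.60% of all genes, 1 was higher (Pdpn), and Prox1 and Flt4 overlapped. Ccl21a, the lymphatic chemokine, whose near-identical copies make its count uncertain, averaged 9.90 CPM in sham day 3, 2.98 in MI day 3, 5.30 in sham day 7 and 1.01 and 1.24 in MI day 7. Prox1, a transcription factor of lymphatic cells, was at 30.7 to 48.6 CPM in the sham sections and 27.2 to 39.5 CPM in the MI sections. Across spots, its mean Spearman's rho with Lyve1 over the sections was −0.04, against 0.01 to 0.10 for the other markers. How much of the Prox1 level came from lymphatic cells was not tested. The 6 markers summed to 61.4 to 86.0 CPM in sham and 54.9 to 67.9 CPM in MI, much of it Prox1. Without Prox1, a sum added after seeing the data, they came to 37.5 and 30.8 CPM in sham and 28.4, 23.3 and 30.3 CPM in MI, so that each MI section lay below both sham sections. At day 7, 1 of the 6 was called lower (Ccl21a by −1.57, limma adjusted p = 0.016), beside 0.0464% of all genes. The spread there came from the MI day 7 sections alone, and no gene was called under median-of-ratios scaling or without mitochondrial and haemoglobin genes. How much of the Lyve1 signal came from lymphatic cells was not tested. For F13a1, the platelet markers (3 of 5 in all tables) summed to 36.4 to 40.4 CPM in sham and 32.6 to 37.2 CPM in MI, most of it Pf4, which macrophages also carry.

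The resident-type share of the 10 genes was lower in every MI section than in both sham sections, although Mrc1 and Cd163 themselves were higher there. The 4 resident-type genes made up 19.6% of the summed CPM of all 10 genes in sham day 3 and 3.89% in MI day 3, and 20.6% in sham day 7 against 13.1% and 9.42% in MI day 7. The mean was 8.82% ± 4.66 (SD, n = 3) over the MI sections and 20.1% ± 0.73 (SD, n = 2) over the sham sections. The 3 MI sections did not overlap with the 2 sham sections, and the exact permutation test (two-sided) gave p = 0.2, the smallest that 3 against 2 sections allow. Leaving out Lyz2, the most variable gene, the sham shares were 27.4% and 30.3% and the MI shares 11.002%, 20.9% and 17.4%. Leaving out Lyve1 the sham shares were 14.1% and 17.3% and the MI shares 3.62%, 11.95% and 8.15%. The summed general genes were 8.56-fold higher in MI at day 3 and 1.92-fold higher at day 7, against 1.43-fold and 0.91-fold for the summed resident-type genes.

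These differences were then set against the spread between sections with limma, fitted to log2(mean CPM + 1) of the sections over 12931 genes, with Benjamini-Hochberg adjustment over all of them. Across both days, with day as a covariate, none of the 10 genes passed an adjusted p of 0.05, beside 0.00773% of all genes called higher. Without the sham day 7 section this fit holds only the day 3 difference, 1 section against 1, so its calls are not given. At an unadjusted p under 0.05, all 6 general genes were higher (5.35% of all genes were) and Lyve1 was lower (2.75% of all genes were). The fitted differences of the general genes ran from 1.20 for C1qc (SE 0.24, limma adjusted p = 0.375) to 2.33 for Lyz2 (SE 0.59, adjusted p = 0.412). Lyve1 differed by −0.97 (SE 0.23, adjusted p = 0.412), Mrc1 by 0.39, F13a1 by 0.34 and Cd163 by 0.25. The F13a1 value was −0.24 when either day 3 section was left out, which leaves the day 7 difference alone. The median was 1.28 over the general genes and 0.30 over the resident-type genes, beside −0.01 over all genes. Without a test, 8 of the 10 genes were higher in every MI section than in both sham sections, as were 6.84% of all genes, and Lyve1 was lower, as were 9.60% of all genes.

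At day 3, with 1 section in each group and so no replicate check, the difference exceeded 1 on the log2(mean CPM + 1) scale for 7 of the 10 genes, the 6 general genes and F13a1, beside 3.51% of all genes. Lyve1 lay below −1, beside 0.518% of all genes. Lyz2 differed by 3.98, C1qa by 1.91, C1qb by 2.29, C1qc by 1.84, Csf1r by 2.14 and Cd68 by 2.25. F13a1 differed by 1.11, Mrc1 by 0.80, Cd163 by 0.42 and Lyve1 by −1.39. The smallest difference of a general gene was thus above the largest of a resident-type gene.

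At day 7, 0 of the 10 genes passed, beside 0.186% of all genes called higher and 0.0464% called lower. The spread there came from the 2 MI sections, and the sham section was assumed to vary like them. The general genes were higher by 0.55 (Cd68) to 1.10 (Lyz2, SE 0.29, limma adjusted p = 0.236), and all 6 had an unadjusted p under 0.05, as did 2.42% of all genes in that direction. Lyve1 differed by −0.66 (SE 0.26, adjusted p = 0.883) and was the member lower at an unadjusted p under 0.05, as were 1.68% of all genes, while F13a1 differed by −0.24, Mrc1 by 0.09 and Cd163 by 0.13. The MI day 7 sections lay on the same side of the sham section for all 10 genes, with replicate 2 above replicate 1 for all but F13a1.

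**Figure D2:**
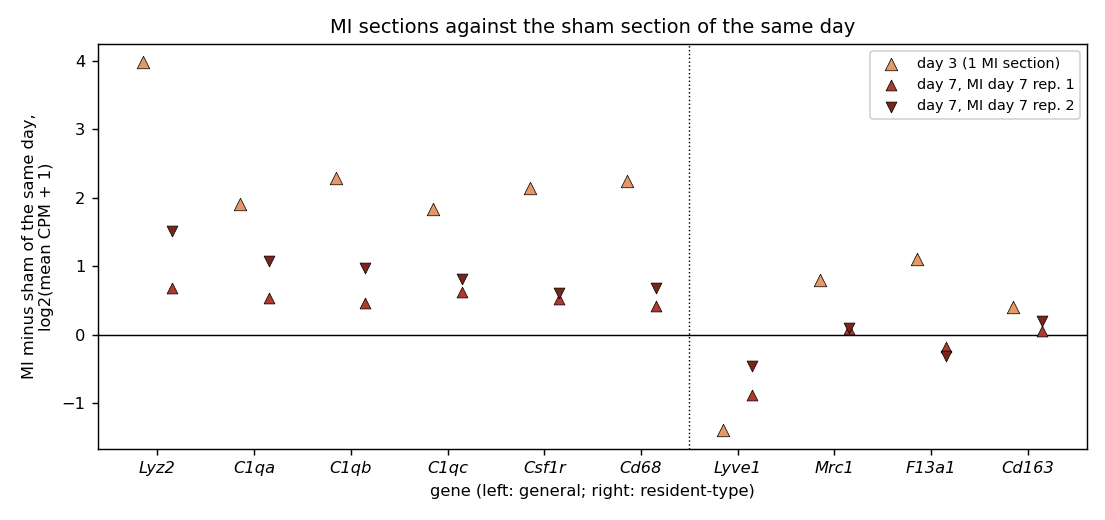
MI section minus the sham section of the same day, on the log2(mean CPM + 1) scale, for each gene, with 1 point for day 3 and 1 for each MI day 7 section. General genes (left of the dotted line) lie above 0 at both days, with Lyz2 at 3.98 on day 3, while Lyve1 lies below 0 in all 3 MI sections.

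The MI difference at day 3 was then set against that at day 7. Sham day 3, MI day 3 and sham day 7 hold 1 section each, so that the only spread this fit can use is the gap between the MI day 7 replicates. Variation at day 3 was not measured, and the p-values assume that it is the same. Under that assumption 3 of the 10 genes passed (0.363% of all genes passed in that direction and 0.0619% in the other). The day 3 difference exceeded the day 7 difference by 2.88 for Lyz2 (SE 0.44, limma adjusted p = 0.0050), 1.58 for Csf1r (SE 0.33, adjusted p = 0.0436) and 1.70 for Cd68 (SE 0.35, adjusted p = 0.0436). The C1q genes differed by 1.10 to 1.57 and F13a1 by 1.36, and these did not pass (adjusted p = 0.078 to 0.417). Lyve1 differed by −0.73, Mrc1 by 0.70 and Cd163 by 0.28, which did not pass either. None of these calls held under median-of-ratios scaling (adjusted p = 0.268 for Lyz2) or when mitochondrial and haemoglobin genes were left out (0.280), where no gene of any kind passed.

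Of 18 further general markers, 11 were higher in every MI section than in both sham sections (6.84% of all genes were), 0 were lower (9.60% of all genes were) and the other 7 overlapped. The median difference across days was 1.34. Tyrobp, a signalling adaptor of myeloid receptors, averaged 25.4 CPM in sham day 3 and 131 in MI day 3, and Ctss, a lysosomal protease, 9.97 and 155 CPM. The day 3 difference of Ctss exceeded its day 7 difference by 2.76 and that of Tyrobp by 1.69, and 8 of the 18 passed the test above (0.363% of all genes did), with no variation at day 3 measured and 0 calls of any gene under median-of-ratios scaling. Lgmn, another lysosomal protease, was the most abundant of the list, at 91.5 CPM in sham day 3, 178 in MI day 3 and 93.3 to 94.5 in the day 7 sections.

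Of 15 further resident-type markers, 12 were in all 5 tables (Timd4, Cbr2 and Vsig4 were not), 4 of these were higher in every MI section (6.84% of all genes were), 0 were lower (9.60% were), and the median difference was 0.46. Their 3 most abundant members, Cd36, Selenop and Gas6, are also made by endothelial or mesenchymal cells. Selenop, the selenium carrier, averaged 174 CPM in sham day 3, 351 in MI day 3 and 151 to 204 at day 7. Gas6, a bridging ligand for the uptake of dying cells, averaged 95.7, 117, 80.4, 58.1 and 93.0 CPM in sham day 3, MI day 3, sham day 7 and the MI day 7 sections, and Cd36 overlapped between groups too. Of the resident-type genes in all 5 tables, members included, Lyve1 was the only 1 that was lower in every MI section.

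Of 9 phagocyte genes linked to injury, 8 were measured and 6 were higher in every MI section, beside 6.84% of all genes. Ctsb, a lysosomal protease, averaged 286 CPM in sham day 3, 728 in MI day 3, 357 in sham day 7 and 363 and 412 in MI day 7. Of 10 markers of recruited monocytes only 5 were in all tables, and 1, Ccr2, was higher in every MI section, a gene named after its values were seen. Ccr2, the receptor that draws monocytes out of the blood, averaged 0.69 CPM in sham day 3, 14.8 in MI day 3, 0.32 in sham day 7 and 1.21 and 2.15 in MI day 7. The rest of the 5 overlapped between groups, and across days 3 of the 5 differed upwards and 2 downwards. Vcan, the most abundant of them, averaged 50.5 CPM in sham day 3, 48.6 in MI day 3, 43.5 in sham day 7 and 32.5 and 45.7 in MI day 7. Transcripts of other cell types were higher with MI as well. All 5 haemoglobin and red cell genes were higher in every MI section, for example Hbb-bs at 2560 and 4136 CPM in sham and 6999, 5382 and 6287 CPM in MI. So were 4 of 6 fibroblast genes (Col1a1, Col1a2, Col3a1 and Pdgfra), with Col1a1 at 686 and 638 CPM in sham and 1234, 821 and 1291 CPM in MI. The part of these cells in the levels of the 10 genes was not tested. The neutrophil genes S100a8 and S100a9, of a cell type that also makes Lyz2, did not separate the groups. S100a8 averaged 10.0 CPM in sham day 3, 37.3 in MI day 3, 4.54 in sham day 7 and 4.25 and 15.4 in MI day 7. The 3 of 8 neutrophil markers in all tables summed to 10.4 to 26.0 CPM in sham and 8.65 to 83.6 in MI, and their part in the Lyz2 level was not tested. Lymphocyte markers (3 of 9 measured) summed to 2.21 to 3.61 CPM in sham and 2.46 to 6.42 CPM in MI. Of the dendritic markers only 1 of 6 was in all tables, at 0.06 to 7.25 CPM.

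The highest general values formed patches in the MI day 3 section and in MI day 7 replicate 2. Moran's I, which is near 0 where neighbouring spots are unrelated and approaches 1 where they are alike, was 0.62 for Lyz2 in MI day 3 and 0.54 in MI day 7 replicate 2. It was 0.11 in MI day 7 replicate 1 and 0.05 and 0.06 in the sham sections. Mrc1 reached 0.25 in the same 2 MI sections, and Lyve1 did not exceed 0.13 in any section. The values depended on the scale, since on log2(CPM + 1) Lyz2 kept 0.60 in MI day 3 but had 0.26 and 0.16 in MI day 7 replicates 2 and 1, and Mrc1 had 0.13 in both sections. The top decile of spots by summed general genes held 63.9% of their level in MI day 3 and 63.7% in MI day 7 replicate 2, against 31.3% in MI day 7 replicate 1 and 38.1% to 41.5% in sham. By their own top decile, the summed resident-type genes held 47.6% in MI day 3, 64.5% and 37.5% in MI day 7 and 49.5% to 54.0% in sham. These shares also follow how sparse the counts are. The median spot held 0 CPM of these genes in both sham sections and MI day 7 replicate 2, 28.0 in MI day 3 and 18.6 in MI day 7 replicate 1. Of the top spots by general genes, 27.8% to 50.6% were also top spots for the summed resident-type genes, from 15 of 54 in sham day 3 to 40 of 79 in MI day 7 replicate 2.

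**Figure D3:**
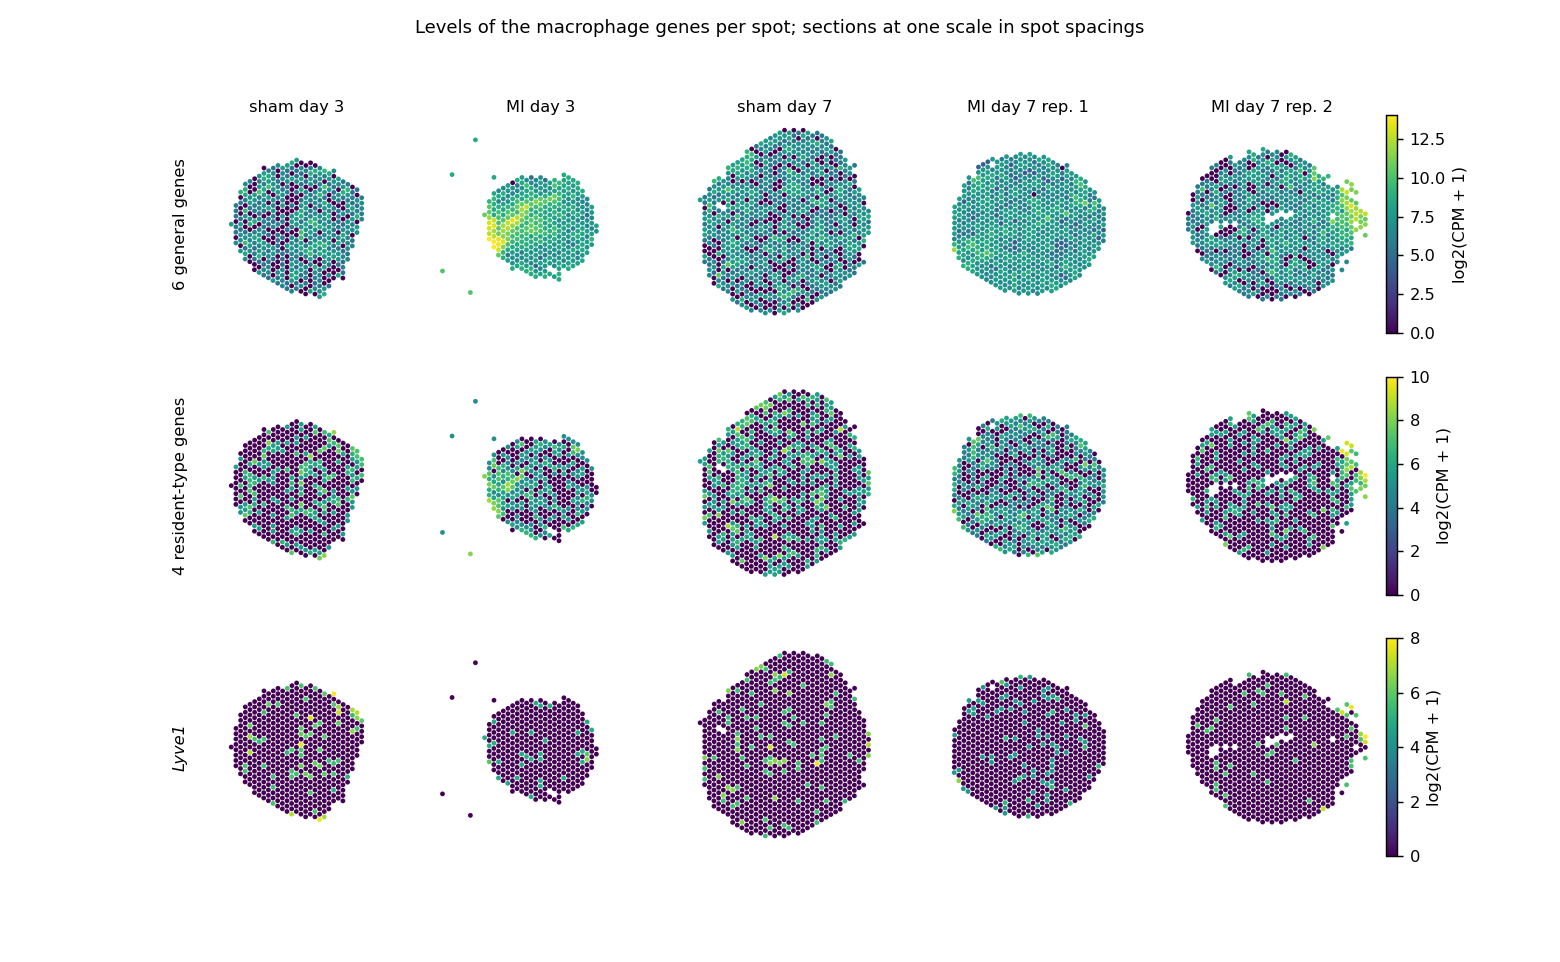
Spot maps of the 5 sections with position in units of the distance between neighbouring spots, coloured by log2(CPM + 1) of the 6 general genes summed (top), the 4 resident-type genes summed (middle) and Lyve1 alone (bottom), each with its own colour scale. High general values form a patch at one side of the MI day 3 section and of MI day 7 replicate 2, where the top spots hold 63.9% and 63.7% of the level, and a scatter in the other sections. Isolated spots beyond the frame are not drawn, 13 in all.

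Across the spots of a section the general genes went together more closely than they did with the resident-type genes. The median Spearman's rho between pairs of general genes was 0.52 in MI day 3, 0.31 and 0.25 in MI day 7 and 0.17 and 0.20 in sham. Between a general and a resident-type gene it was 0.07 to 0.16, and between resident-type genes 0.07 to 0.20. These are descriptions over 376 to 960 spots that share a section and a depth correction, and counts this sparse hold rho down. The 5 genes outside the list most like the summed general genes, by the mean rho over the 5 sections among genes of at least 5 CPM, were Apoe (0.50), Ftl1 (0.44), Tyrobp (0.41), Fcer1g (0.39) and Tmsb4x (0.39). For the summed resident-type genes they were Apoe (0.27), Pf4 (0.26), Fcer1g (0.24), Ftl1 (0.23) and Tyrobp (0.22). Lyve1 stood weakly beside any gene, with a mean rho of 0.12 to Mrc1 and 0.10 to Ccl21a.

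The deposited tables also score each spot for 11 cell types by transferring labels from single-nucleus data with Seurat. These scores were made from the same expression values, so that the levels by score are a description with no test. The Macrophage score was the largest of the 11 in 26 spots of sham day 3, 20 of MI day 3, 70 of sham day 7 and 21 and 13 of MI day 7. In these spots the summed general genes averaged 363 CPM against 103 in the others in sham day 3, and 9179 against 526 in MI day 3. At day 7 they averaged 381 against 104 CPM in sham, and 593 against 179 and 3586 against 232 CPM in the MI sections. The Macrophage spots of MI day 3 thus held 49.5% of the general level in 5.32% of the spots, whereas those of sham day 3 held 15.1% in 4.78% of the spots. The count of such spots did not follow the general genes, since sham day 7 had the most spots and a general sum of 124 CPM over the section, the lowest but for sham day 3.

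The spots that scored as Macrophage ranked highest among the score classes of at least 10 spots in 5 of 5 sections for Lyz2 and C1qb, and in 4 of 5 for C1qa, C1qc, Csf1r, Cd68, Mrc1 and F13a1. Cd163 ranked highest there in 3 sections and Lyve1 in 2. Lyve1 was highest in endocardial spots in sham day 3 (21.2 CPM) and MI day 3 (10.97 CPM), and in epicardial spots in MI day 7 replicate 2 (75.9 CPM, against 12.1 CPM in Macrophage spots). Within the Macrophage spots the resident-type share of the 10 genes was 14.2% and 22.9% in sham, 2.0% in MI day 3 and 10.9% and 4.9% in MI day 7. The summed resident-type level in those spots was itself higher in MI at day 3 and mixed at day 7, at 60.02 CPM in sham day 3, 183 in MI day 3, 113 in sham day 7 and 72.8 and 184 in MI day 7. The 15 epicardial spots of MI day 7 replicate 2 were rich in macrophage transcripts of both kinds, with C1qa at 459 CPM, Csf1r at 177, Mrc1 at 168, F13a1 at 79.7 and Cd163 at 28.9.

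The Macrophage score was also compared with each gene as a continuous value. Its mean Spearman's rho over the 5 sections was 0.37 for Lyz2, the highest of the 10213 genes ranked, and 0.31 to 0.32 for the C1q genes and Csf1r. Ftl1 (0.37), Col3a1 (0.36), Apoe (0.35), Tmsb4x (0.35) and Col1a1 (0.33) followed Lyz2, ahead of the other members. It was 0.26 for Mrc1, 0.25 for Cd68, 0.19 for F13a1, 0.10 for Lyve1 and 0.06 for Cd163. Lyve1 ranked 656, and its rho in the MI day 3 section was 0.004. The score was exactly 0 in 40.6% to 84.3% of the spots of a section, and these spots still held part of the transcripts. In MI day 3 those 84.3% of the spots held 84.2% of the Lyve1 level, about their share of the spots, and 22.9% of the Lyz2 level. In the other sections they held 26.5% to 43.0% of the Lyve1 level and 24.7% to 41.5% of the Lyz2 level, less than their share of the spots.

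**Figure D4:**
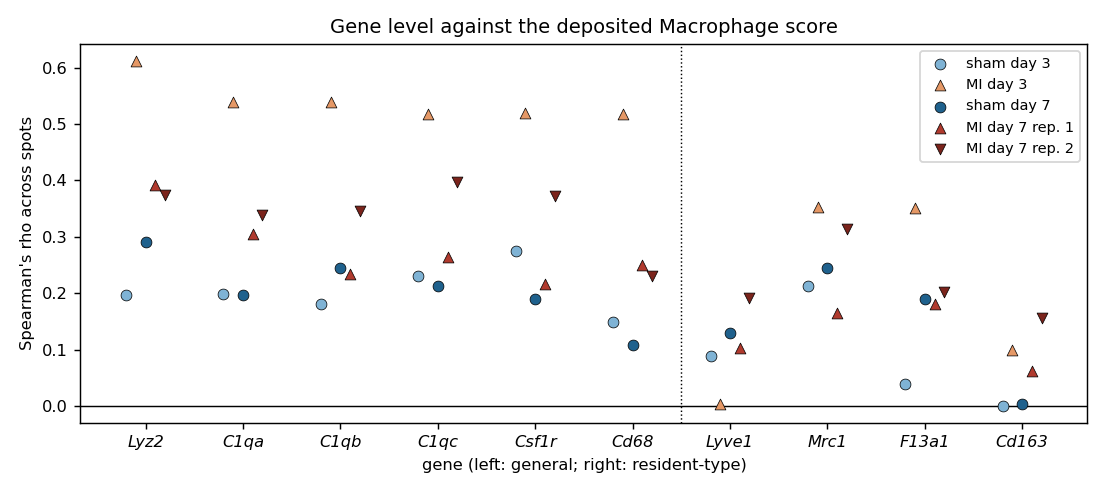
Spearman's rho across spots between the CPM of each gene and the deposited Macrophage score, 1 point per section. The MI day 3 points of the general genes are the highest (0.61 for Lyz2), while Lyve1 and Cd163 stay below 0.20 in every section.

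At the rim of the sections 3 of the 10 genes rose, beside 0.737% of all genes called higher, and none fell, beside 4.05% called lower. Edge spots were those with fewer than 6 neighbours (86 to 163 a section), which takes in the outer surface, cavities and tears, and they were compared with the interior of the same section with limma over 13306 genes, the section being a block. Lyve1 differed by 0.88 (SE 0.19, limma adjusted p = 0.0099), Csf1r by 0.53 (SE 0.11, adjusted p = 0.0128) and Mrc1 by 0.54 (SE 0.14, adjusted p = 0.0291). These 3 genes were higher at the edge in all 5 sections, as were 1.56% of all genes. The median of all genes lay at −0.13 in this comparison, relative to which Lyve1 differed by 1.01, Csf1r by 0.66 and Mrc1 by 0.67. Of all genes 98 were called higher and 539 lower, but 177 and 51 under median-of-ratios scaling, where the 3 calls held. They also held without spots that were isolated or under 5000 UMIs.

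Lyve1 averaged 17.7 CPM at the edge and 7.43 in the interior of sham day 3, 3.97 and 2.49 in MI day 3, and 8.86 and 5.94 in sham day 7. In the MI day 7 sections it averaged 4.80 at the edge and 2.67 in the interior, and 10.3 and 2.84. The edge was thus higher in each section, most of all in MI day 7 replicate 2 and sham day 3. Mrc1 differed by 1.29 in MI day 7 replicate 2, by 0.56 and 0.66 in the other MI sections and by no more than 0.11 in the sham sections. Lyve1 kept its call when any section was left out (adjusted p = 0.011 to 0.049). Csf1r lost it without sham day 7 or MI day 7 replicate 1, and Mrc1 when any of the 3 MI sections was left out.

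The other 7 genes were not called at the edge. C1qb differed by 0.41 (limma adjusted p = 0.0539), F13a1 by 0.60 (0.0654), Lyz2 by 0.48 (0.0816), C1qa by 0.33, Cd163 by 0.56, Cd68 by 0.26 and C1qc by 0.19. Lyz2 was higher at the edge by 0.91, 0.34 and 1.60 in the MI sections and lower by 0.41 and 0.07 in the sham sections. The sections of MI and sham thus lay on opposite sides for Lyz2, and likewise for C1qa and C1qc, a pattern that 1.25% of all genes showed. The difference between MI and sham in the edge effect was 1.19 for Lyz2 (SE 0.22, limma adjusted p = 0.168), and no gene of the 13306 passed this test, though an unadjusted p under 0.05 was reached by 348 genes higher in MI and 406 lower.

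**Figure D5:**
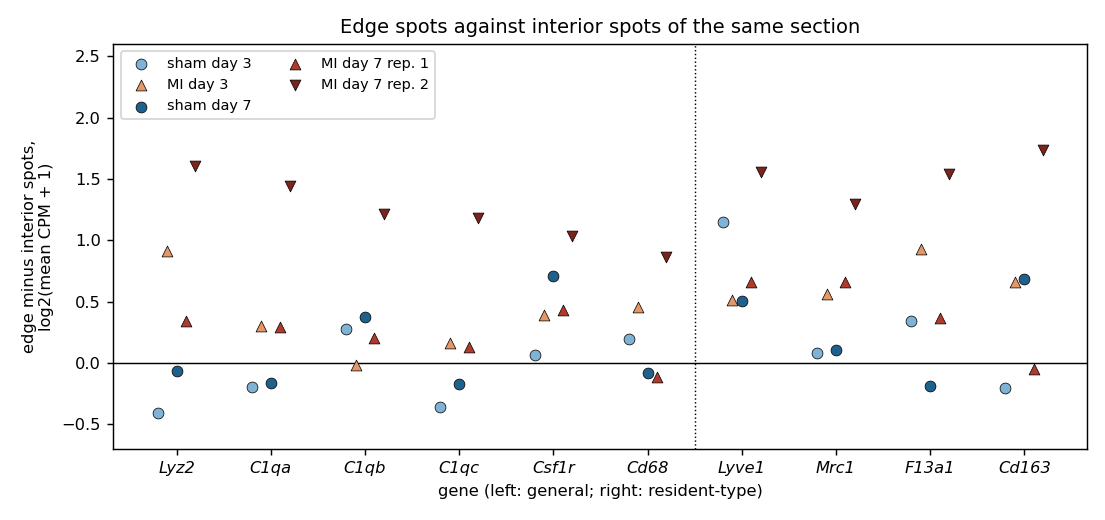
Edge spots minus interior spots of the same section on the log2(mean CPM + 1) scale, 1 point per section. Lyve1, Mrc1 and Csf1r lie above 0 in all 5 sections, and MI day 7 replicate 2 is the highest point for each of the 10 genes.

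Transcripts of other cells moved with the edge as well, in counts to be read beside the 0.737% of all genes called higher there and the 4.05% called lower. Of the 6 lymphatic markers, Ccl21a (2.62, limma adjusted p = 2.6e-06) and Mmrn1 (1.22, adjusted p = 0.0102) were higher there, as were all 5 haemoglobin and red cell genes, for example Hbb-bs by 0.85 and Hba-a1 by 1.10. Of the 4 epicardial markers measured, 2 were higher (Msln by 2.79, Krt19 by 0.81) and 1 lower (Tbx18 by −0.51). Of the 6 fibroblast markers, 3 were higher (Col1a1 by 0.52, Col1a2 by 0.43 and Col3a1 by 0.36) and 1 lower (Postn by −0.38). Krt19 and Postn were named after their values were seen. Of the 12 further resident-type markers, 3 were higher at the edge, Stab1 by 0.32 and, named after their values were seen, Ccl24 by 1.26 and Igf1 by 0.43. None of the 18 further general macrophage markers was called at the edge (median 0.25), and the injury phagocyte and recruited monocyte lists had 1 gene each called lower and 0 higher. The part of these cell types in the edge values of Lyve1, Csf1r and Mrc1 was not tested.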

How the data were processed

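Visium libraries of 5 heart sections were analysed. Per the study's methods, the authors aligned reads to mm10 (GRCm38) with Space Ranger and ran Seurat with sctransform. Of the 5 deposited expression tables, 1 holds raw UMI counts and 4 hold sctransform-corrected counts rounded to whole numbers (treated as a score, since they are not raw counts). The deposited spot tables hold raw UMI counts per spot, 11 cell type scores, each a fraction of 1, and pixel positions. Here, each spot was scaled to CPM over 13708 shared genes, which held 99.8% to 99.9% of the values, and averaged per section. limma 3.58.1 (R 4.3.3) with a trend was fitted to log2(mean CPM + 1) of genes whose mean reached 1 CPM in 2 or more profiles, with a threshold of 0.05 after Benjamini-Hochberg adjustment over all genes, and was tested on simulated data. The rest used Python 3.11.15, numpy 2.4.6, pandas 2.3.3, scipy 1.17.1 and matplotlib 3.10.9. Named were the 10 members, the 3 most abundant genes of each marker list that a result turns on, the 5 genes most like each group of members, and Lyz1. Further genes were named outside this rule, some of them after their values were seen. Among them were Ccr2, Krt19, Postn, Pdgfra, Ccl24, Igf1, Stab1, Ccl21a, Mmrn1 and Reln. Members, lists and tests were chosen with earlier results of these data known. Alternatives were median-of-ratios scaling, other pseudocounts and filters, summed values, sham day 3 corrected with sctransform (0.4.2), 2 other edge definitions, and each section left out. Promoter and gene positions came from RefSeq and GENCODE M21.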

Additional observations from a re-analysis of the deposited data

Results flagged for a closer look

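The MI difference at day 3 exceeded that at day 7 by 2.88 for Lyz2, 1.58 for Csf1r and 1.70 for Cd68 on the log2(mean CPM + 1) scale (limma adjusted p = 0.0050, 0.0436 and 0.0436 for the test of that difference, whose spread comes from the 2 MI day 7 sections alone). The MI sections were above the sham section on both days for all 3 genes, and the calls did not hold under another scaling.

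The edge effect of Lyz2, C1qa and C1qc was positive in all 3 MI sections and negative in both sham sections. The MI effect minus the sham effect was 1.19 for Lyz2, 0.86 for C1qa and 0.75 for C1qc, and the interaction test did not pass (limma adjusted p = 0.168, 0.765 and 0.767). No group had 4 sections, so that no section could be tested as an outlier within its group.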

How the results depend on the processing

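For the 10 genes across all comparisons and alternatives, 494 values kept their direction and their side of the threshold, 27 passed only under the alternative, 15 no longer passed and 8 changed sign. Across days the number of genes called higher was 0, and 1 (C1qa) without MI day 7 replicate 1. The number called lower was 0. The fit without sham day 7 holds only the day 3 difference of 1 section against 1. Its calls count among the 27 and are not listed. Without a day 3 section, F13a1 fell from 0.34 to −0.24, which is its day 7 difference. Without sham day 7 it rose to 1.11, its day 3 difference. Over all genes the calls across days were 1 higher and 0 lower, and 81 and 6 without MI day 7 replicate 1. At day 7 the count was 0, and 1 (Lyz2) with values summed over spots, while the calls over all genes were 24 higher and 6 lower, 0 under median-of-ratios scaling and without mitochondrial and haemoglobin genes, and 62 higher and 25 lower with summed values.

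The MI difference between days was called for 3 genes, for 0 under median-of-ratios scaling, 0 without mitochondrial and haemoglobin genes, 1 with a pseudocount of 0.5, 6 with summed values, and 1 without spots that were isolated or under 5000 UMIs (an alternative chosen after seeing the data). Over all genes its calls were 47 higher and 8 lower, and 0, 0, 20 and 6, 135 and 23, and 15 and 5 in the same order.

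The edge count of 3 became 5 with summed values, 5 with fewer than 5 neighbours, 6 with the outer rim only, and 1 to 4 with a section left out (1 without MI day 7 replicate 1). The calls over all genes were 93 higher and 630 lower, 106 and 795, and 130 and 1215 in the same order. With a section left out they were 49 to 86 higher and 82 to 696 lower. C1qc went from 0.19 to −0.061 without MI day 7 replicate 2, within −0.061 to 0.32. Over all genes the edge calls were 98 higher and 539 lower, but 177 and 51 under median-of-ratios scaling, where the median of all genes was −0.003, and 123 and 99 without mitochondrial and haemoglobin genes. The count for the edge effect between MI and sham was 0, then 1 with fewer than 5 neighbours and 0 to 1 with a section left out. Its calls over all genes were 0, then 1 higher and 1 lower, and 0 to 8 higher and 0 to 9 lower. There C1qb ranged from −0.23 to 0.39, Csf1r from −0.091 to 0.55 and Lyve1 from −0.24 to 0.40, and Lyve1 was −0.0029 without mitochondrial and haemoglobin genes. The difference in resident-type share, −11.3 percentage points, was −7.78 without Lyve1. The mean rho between general genes, 0.29, was 0.44 with values averaged over neighbouring spots, an alternative chosen after seeing the data. Where a value changed, the cause was not tested. No paired analysis was possible because the groups share only the replicate number 1. The low counts of Cd163 (7 UMIs in sham day 3), F13a1 (56), Cd68 (61) and Lyve1 (91) limit their precision, and day 3 has 1 section per group.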
